A study of Mus musculus with 9 samples.

Results

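The clustered replication-dependent histone genes are the short, mostly single-exon genes that supply new histone protein while DNA is copied. Here they were taken as every protein-coding gene whose mouse symbol begins with Hist1h, Hist2h, Hist3h or Hist4h. The annotation holds 67 such genes, and 63 of them were listed in the deposited tables among 22195 genes in all. Of the 63, 51 lie in the Hist1 cluster (chromosome 13, 21715763 to 23934851, GRCm38), 9 in the Hist2 cluster (chromosome 3, 96219865 to 96270132), 2 in the Hist3 cluster (chromosome 11) and 1, Hist4h4, on chromosome 6. By protein they are 6 linker histone H1 genes, 16 H2A genes, 17 H2B genes, 12 H3 genes and 12 H4 genes. The 4 annotated genes that were not listed (Hist1h2ap, Hist1h2br, Hist1h4n and Hist2h2aa1) each have a coding sequence identical to that of a listed gene, and where reads of such a pair were counted was not tested.

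RNA was sequenced from 9 bulk skin tumors, 3 in each of 3 groups, grown from YUMMER1.7 cells under the skin of C57BL/6J mice with an intact immune system. YUMMER1.7 is a transplantable mouse melanoma line whose parent line was exposed to ultraviolet light. Established tumors were treated with an isotype control antibody (IgG), with anti-B7-H3 or with anti-PD1. B7-H3 is a B7-family surface protein found on many tumors, and PD1 is an inhibitory receptor of T cells. Every group therefore carried the same cells and received an antibody, and no untreated tumor was analysed here. Age and sex of the mice, and whether each library came from its own mouse, are not given in the sources used here, so p-values measure the spread between these libraries. The RNA was total RNA depleted of ribosomal RNA, a preparation that keeps transcripts without a poly(A) tail.

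As background, replication-dependent histone transcripts are the main animal mRNAs that end in a conserved stem-loop in place of a poly(A) tail. The stem-loop binding protein SLBP holds that stem-loop through processing, export and translation, and the U7 snRNP directs the cut that makes the end. NPAT, activated by cyclin E with CDK2, drives transcription of the clusters when cells enter S phase, and the transcripts are degraded when DNA synthesis stops. Their amount in a tissue is therefore widely read together with that of other S phase genes.

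The stem-loop is shown first because it is the element that defines this class of transcript. The search was for a perfect stem of 6 base pairs starting with GG, around a loop of 4 bases starting with TTT. Those starting bases were thus set by the search. A match was found 21 to 58 bases after the stop codon in 44 of the 67 annotated genes, including 11 of 13 H4 genes. In the other genes no such match was found in the annotated transcript. The 6 versions are given 5′ to 3′ with the commonest first, in lower case throughout.
Form 1, 26 genes: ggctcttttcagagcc
Form 2, 6 genes: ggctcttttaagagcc
Form 3, 1 gene: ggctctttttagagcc
Form 4, 7 genes: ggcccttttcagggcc
Form 5, 2 genes: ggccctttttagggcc
Form 6, 2 genes: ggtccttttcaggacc
Forms 1 to 3 were found in H1, H2A, H2B and H3 genes and in no H4 gene, and forms 4 to 6 in H4 genes alone. Hist1h1c, Hist2h2aa2 and Hist2h3c2 carried form 1, Hist1h2bb carried form 2, Hist4h4 carried form 4 and Hist2h4 carried form 5.

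Promoters are shown for genes that the results turn on: the H4 gene Hist4h4, which had the smallest p for anti-PD1, the H2B gene Hist2h2bb, among the 5 with the smallest p there, and the H2B gene Hist1h2bg, whose window overlaps that of the H2A gene Hist1h2ae on the other strand. RefSeq promoter windows (GRCm38.p6) were matched for 61 of the 67 genes, and the 250 bases upstream of each start were searched on both strands for the CCAAT box, for the TATA box as TATAAA, and for the octamer ATTTGCAT. Matches, in either orientation, are in capitals below.
Hist4h4, chr6:136804432-136804681, minus strand: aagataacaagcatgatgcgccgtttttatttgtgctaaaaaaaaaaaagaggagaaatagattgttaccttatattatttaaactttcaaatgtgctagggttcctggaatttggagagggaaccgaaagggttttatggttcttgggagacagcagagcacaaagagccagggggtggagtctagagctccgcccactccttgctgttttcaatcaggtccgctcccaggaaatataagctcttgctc
Hist2h2bb, chr3:96269450-96269699, plus strand: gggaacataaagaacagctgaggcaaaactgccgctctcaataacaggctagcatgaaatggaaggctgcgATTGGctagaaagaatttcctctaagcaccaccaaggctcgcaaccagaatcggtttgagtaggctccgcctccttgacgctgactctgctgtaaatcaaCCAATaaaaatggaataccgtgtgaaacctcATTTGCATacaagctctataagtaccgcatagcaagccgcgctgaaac
Hist1h2bg, chr13:23571150-23571399, plus strand: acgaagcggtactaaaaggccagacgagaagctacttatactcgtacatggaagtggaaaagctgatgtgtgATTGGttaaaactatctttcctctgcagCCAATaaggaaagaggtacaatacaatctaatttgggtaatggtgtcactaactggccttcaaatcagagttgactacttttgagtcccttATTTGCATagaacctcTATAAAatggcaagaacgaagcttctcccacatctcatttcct
The Hist4h4 window holds none of the 3 motifs, the Hist2h2bb window holds CCAAT and the octamer, and the Hist1h2bg window holds all 3. Over the 61 windows, CCAAT was found in 82.0%, against 33.8% of all 32851 RefSeq windows of the same length. It was present in all 6 H1, all 17 H2A and all 16 H2B windows, in 8 of 10 H3 windows and in 3 of 12 H4 windows. TATAAA was found in 47.5% of the histone windows and 12.4% of all windows. The octamer was found in 21.3% and 1.6%, in 7 H2A and 6 H2B windows and in no other class. The windows of 9 pairs of an H2A and an H2B gene overlap, so a match in a shared stretch counts for both genes. No peak or occupancy data bear on these matches.

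The libraries differed in composition before any histone gene is considered. Totals ran from 8627930 to 27288766 estimated reads. A group of 12 genes that share short sequence words with the gene holding most IgG reads, called satellite genes here, took 87.0% to 92.0% of the reads of the IgG libraries, 5.24% to 28.2% in the anti-B7-H3 group and 14.6% to 38.2% in the anti-PD1 group. Histone reads accordingly numbered 9803, 19894 and 2621 in IgG replicates 1 to 3, 30350, 73344 and 85566 in the anti-B7-H3 group, and 28763, 83195 and 53073 in the anti-PD1 group. Of the 9 melanocyte lineage markers, Tyr, Tyrp1, Dct, Mlana, Slc45a2, Pmel and S100b each had at most 7 reads in any library, Sox10 had 0 to 18 and Mitf, a regulator of that lineage, had 21 to 170, so the pigment genes were at or near 0. In bulk tissue, fewer cells of a type and less RNA per cell cannot be told apart.

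Histone transcripts were detected in all 9 tumors, at 0.209% (IgG replicate 3) to 1.00% (anti-PD1 replicate 2) of reads outside the satellite genes. Summed over the 63 genes and scaled by the trimmed mean of M values (TMM), they reached 1907, 2221 and 1204 CPM (reads scaled to a common library size) in the IgG group. The anti-B7-H3 libraries stood at 1552, 2037 and 2200 CPM, and the anti-PD1 libraries at 2095, 3586 and 2082 CPM. The 3 groups overlapped: anti-PD1 replicate 2 stood well above all others, IgG replicate 3 stood lowest, and the remaining 7 lay between 1552 and 2221 CPM. Means were 1777 ± 521 (SD, n = 3), 1930 ± 337 and 2587 ± 865 CPM. Anti-PD1 replicate 2 was the highest of the 9 libraries for 51 of the 60 histone genes with enough reads to be tested, against 19.3% of all 12980 tested genes. IgG replicate 3 was the lowest for 42 of the 60, against 23.6% of all tested genes.

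**Figure D1:**
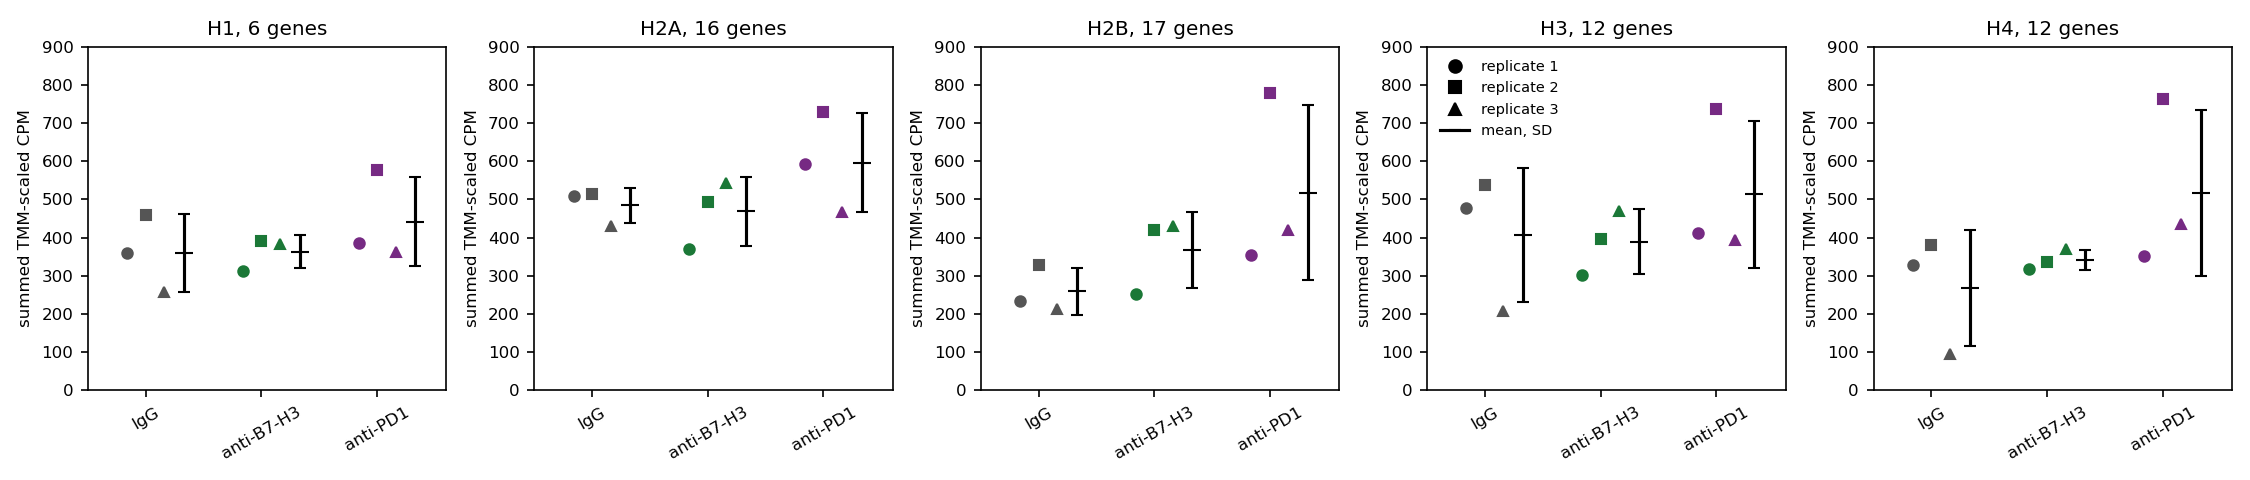
Summed TMM-scaled CPM (y axis) of the H1, H2A, H2B, H3 and H4 genes in each of 9 tumors, by group (x axis), with bars for the mean and SD of 3 libraries. Anti-PD1 replicate 2 (purple square) is highest in every class, and IgG replicate 3 (grey triangle) is lowest in the H1, H2B, H3 and H4 panels, with H4 at 94.7 CPM there.

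The level of single genes spanned a wide range per kilobase of coding sequence. Among the H2A genes, which encode the partner of H2B at the nucleosome surface, Hist2h2aa2 had the highest mean over 9 libraries at 345 CPM per kb, followed by Hist1h2ao at 206 CPM per kb. The H4 gene Hist1h4d reached 267 CPM per kb and Hist1h4f 148 CPM per kb. Among linker histones, which bind DNA between nucleosomes, Hist1h1c and Hist1h1d reached 157 and 153 CPM per kb. Hist2h2bb and Hist1h2bq led the H2B genes at 149 and 104 CPM per kb, and Hist1h3c and Hist1h3b led the H3 genes at 139 and 138 CPM per kb. Hist2h2aa2, Hist1h2ao and Hist1h2bq each share their whole coding sequence with an unlisted gene. Their levels may therefore include reads of that gene. The testis-linked genes Hist1h1t, Hist1h2ba and Hist1h2aa had 12, 6.8 and 2 reads over all 9 libraries and were the 3 that could not be tested. Their 19.0, 17.6 and 5.13 reads per kb stood close to the 12.0 reads per kb of the 1510 olfactory and vomeronasal receptor genes, a class that these tissues are not known to use.

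How far single genes can be separated differed by class. The median share of 31-base words found in no other listed gene was 84.0% for H1 genes, 22.5% for H4, 15.4% for H2B, 13.5% for H2A and 12.9% for H3. In 15 of the 63 genes at least 50% of words were their own, including Hist4h4 at 99.3%, Hist2h2bb at 92.0% and Hist2h4 at 86.9%. In 4 genes (Hist1h2ad, Hist1h2ag, Hist1h2bc and Hist2h3c2) no word was unique, so the split of reads between these genes and their near-identical copies is uncertain. Class sums are less exposed to that split than single genes are.

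The comparison of anti-PD1 with IgG asks how checkpoint blockade at PD1 changed these tumors. By edgeR's quasi-likelihood test, with p-values adjusted over 12980 genes by the Benjamini-Hochberg method, no histone gene passed the threshold of 0.05 in either direction, where 0.408% of all tested genes did. The smallest adjusted p among the 60 was 0.107, for Hist4h4. Before adjustment, 25 of the 60 had p under 0.05 with the higher value in anti-PD1 tumors and 1 (Hist2h3c2) with the lower, against 7.68% and 10.9% of all tested genes. The fold change was above 0 for 54 of the 60, and its median was 0.59 on the log2 scale, beside 0.01 over all tested genes. For 18 of the 60 every anti-PD1 library lay above every IgG library, and for none below, against 11.1% and 11.9% of all tested genes. DESeq2, run as an alternative, called 7 histone genes, all higher: Hist4h4, Hist2h4, Hist2h2bb, Hist1h2bh, Hist1h2bf, Hist1h2bj and Hist1h2bb. That tool called 6.34% of all genes. The limma-voom fit with quality weights called 1, Hist2h2bb, and 3.34% of all genes.

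The values were concentrated in 2 of the 5 classes. For the 16 tested H2B genes the log2 fold change was positive in 16, from 0.63 to 1.60 with a median of 1.02, and 9 had groups that did not overlap. For the 12 H4 genes it was positive in 12, from 0.39 to 1.55 with a median of 1.05, and 5 had groups that did not overlap. Every anti-PD1 library lay above every IgG library for 11.1% of all tested genes. The medians were 0.36 for H3 (10 of 12 positive), 0.34 for H1 (4 of 5) and 0.19 for H2A (12 of 15). The difference between classes was not tested. With anti-PD1 replicate 2 left out, the H2B and H4 medians were 0.62 and 0.63, and those of H3 and H2A were 0.00 and 0.01. In that fit the number of histone genes with an unadjusted p under 0.05 dropped from 26 to 9. The matching share of all genes in that fit is not given here. With IgG replicate 3 left out as well, a pairing chosen after seeing the data, the H2B and H4 medians were 0.47 and 0.33 and the H3 median was -0.38.

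**Figure D2:**
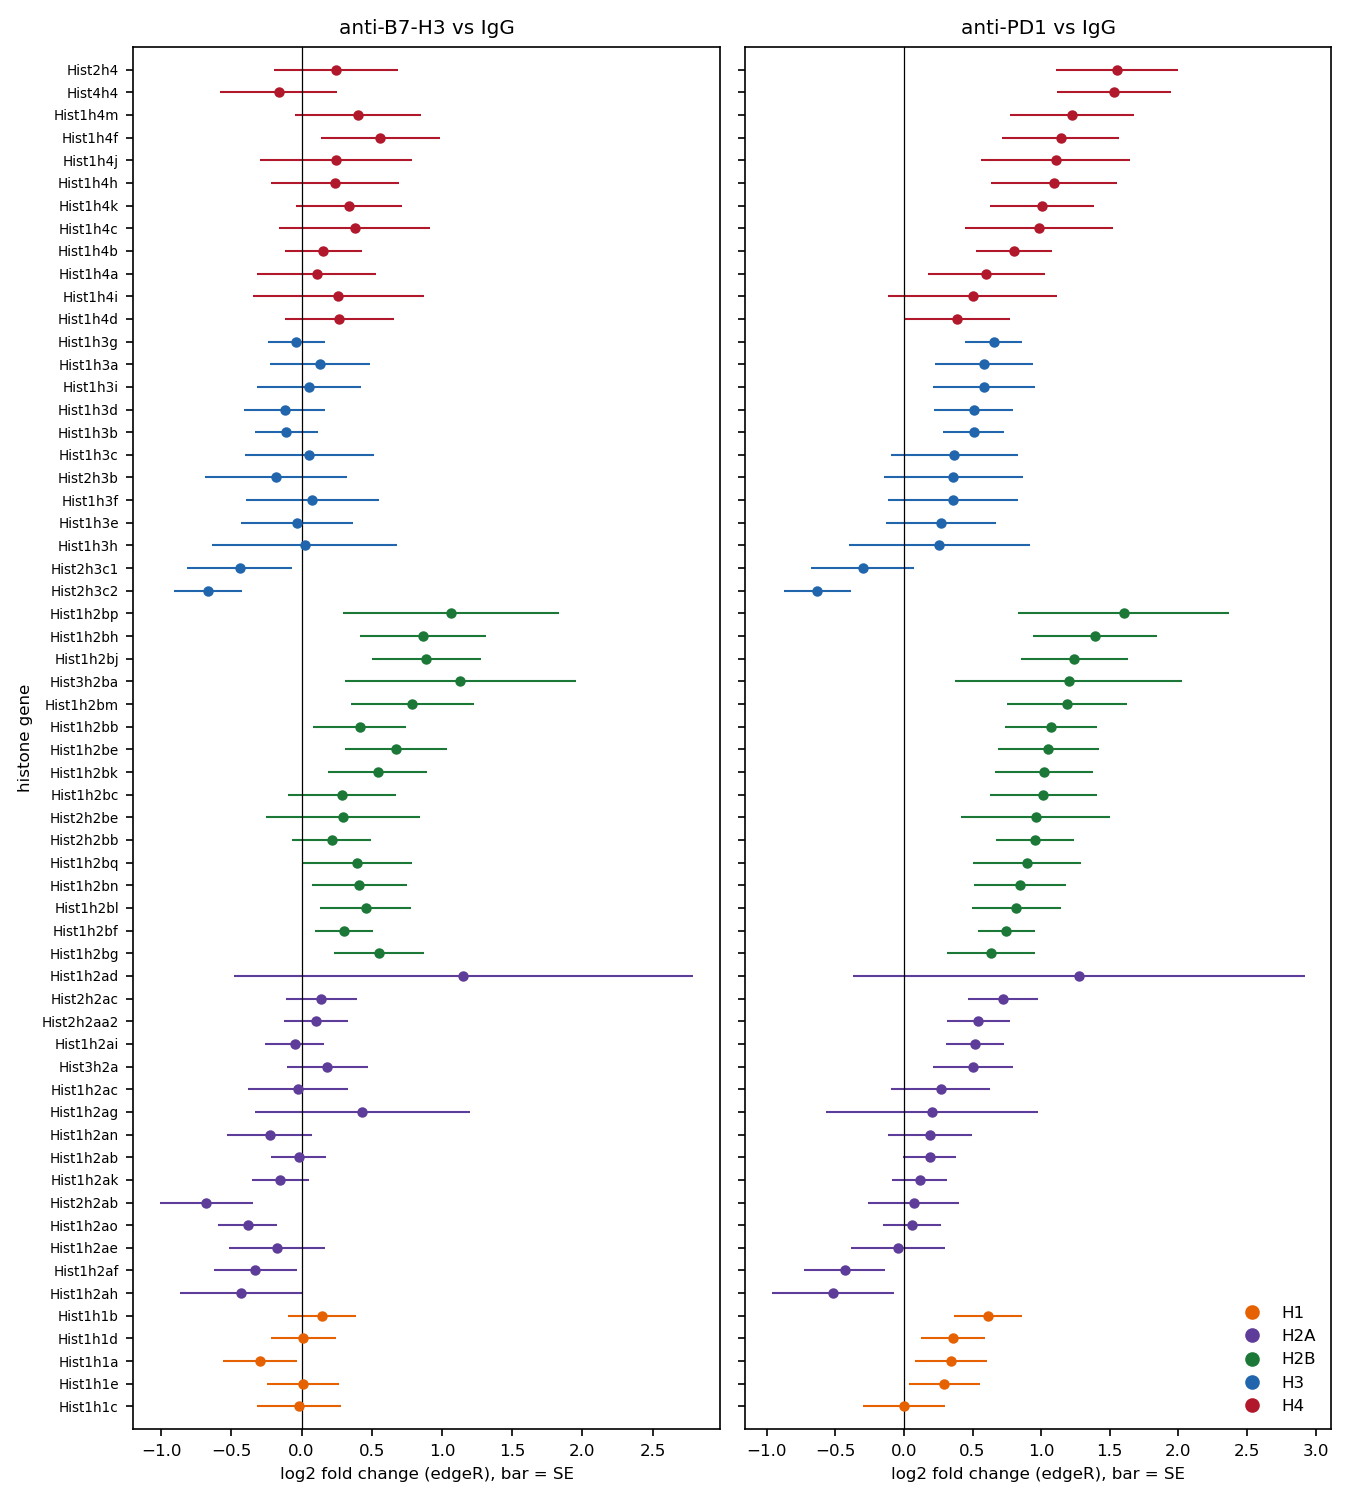
Log2 fold change with its SE (x axis) for each of the 60 tested histone genes (y axis), colored by class, for anti-B7-H3 against IgG and anti-PD1 against IgG, which share the IgG libraries. In the anti-PD1 panel all H2B and H4 points lie right of 0, from 0.39 to 1.60, and in the anti-B7-H3 panel the H2B points lie between 0.21 and 1.13; no gene passed the adjusted threshold in either.

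Hist4h4, an H4 gene that stands alone on chromosome 6 (136801553 to 136804415), had the smallest p. Its TMM-scaled level was 5.83, 5.02 and 0.919 CPM in IgG tumors, 3.68, 4.44 and 3.62 in anti-B7-H3 tumors, and 8.96, 19.0 and 10.1 in anti-PD1 tumors. All 3 anti-PD1 libraries lay above the other 6, while the IgG and anti-B7-H3 groups overlapped. The IgG values rest on 30, 44.7 and 2 reads. Against IgG the log2 fold change was 1.53 ± 0.41 (SE; edgeR adjusted p = 0.107), and it was 1.13 without anti-PD1 replicate 2.

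Hist2h4, the H4 gene of the Hist2 cluster (chromosome 3, 96261682 to 96263311), had 10.3, 7.59 and 2.30 CPM in IgG tumors and 8.23, 8.81 and 8.77 CPM in anti-B7-H3 tumors. In the anti-PD1 group it had 12.2, 34.3 and 17.2 CPM, again above all 6 other libraries. The log2 fold change against IgG was 1.55 ± 0.44 (SE; edgeR adjusted p = 0.121), and 1.03 without anti-PD1 replicate 2.

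Hist2h2bb, an H2B gene of the same cluster (chromosome 3, 96269752 to 96270132), had 30.5, 45.7 and 49.2 CPM in IgG tumors and 38.6, 53.1 and 53.0 in anti-B7-H3 tumors. The anti-PD1 values of 61.1, 116 and 64.2 CPM did not overlap either group. Against IgG the log2 fold change was 0.95 ± 0.28 (SE; edgeR adjusted p = 0.125), and 0.60 without anti-PD1 replicate 2. Unlike most members, this gene was not lowest in IgG replicate 3, which was the highest of its group.

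Hist1h2bf, an H2B gene with 12.5% of words its own, had 9.53, 11.1 and 11.9 CPM in IgG tumors, 11.6, 15.1 and 13.0 in anti-B7-H3 tumors and 15.5, 21.8 and 16.8 in anti-PD1 tumors. The anti-PD1 libraries lay above both other groups, which overlapped each other. Its log2 fold change against IgG was 0.75 ± 0.21 (SE; edgeR adjusted p = 0.109). Hist1h2bb, another H2B gene, had 25.7, 31.5 and 16.5 CPM in IgG tumors against 35.2, 79.0 and 44.2 CPM in anti-PD1 tumors. Those groups did not overlap, but the anti-B7-H3 values of 23.5, 38.3 and 38.3 CPM overlapped both. Its log2 fold change was 1.07 ± 0.34 (SE; edgeR adjusted p = 0.140), with 0.67 left when anti-PD1 replicate 2 was dropped.

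**Figure D3:**
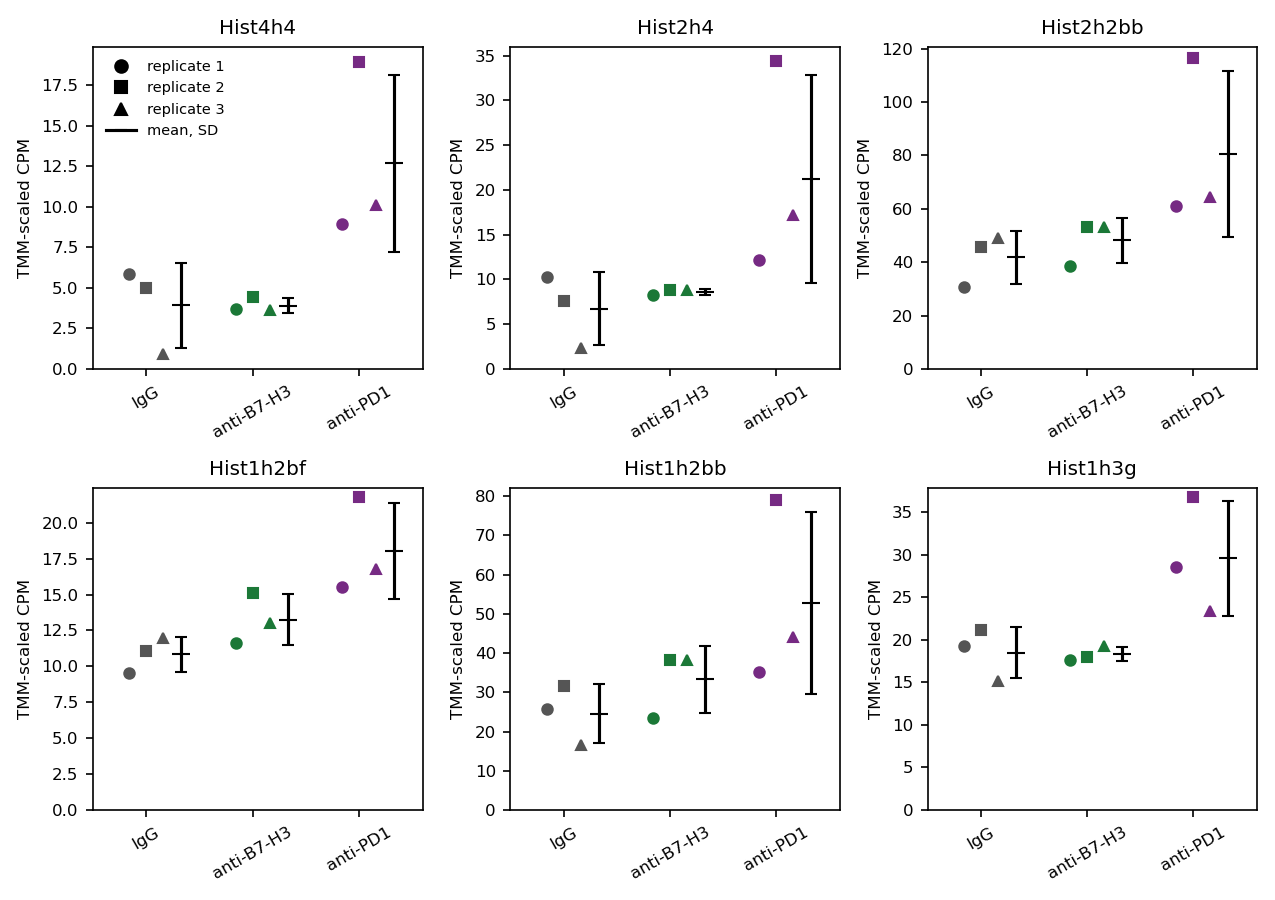
TMM-scaled CPM (y axis) of Hist4h4, Hist2h4, Hist2h2bb, Hist1h2bf, Hist1h2bb and Hist1h3g in each tumor by group (x axis), with bars for the mean and SD of 3 libraries. Anti-PD1 replicate 2 is the highest point in every panel, and the anti-PD1 libraries of Hist4h4 lie between 8.96 and 19.0 CPM, above all others.

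Blockade of B7-H3 was set against the same IgG tumors. No histone gene passed the adjusted threshold by edgeR, DESeq2 or limma-voom. Those tools called 0.609%, 3.87% and 2.77% of all tested genes. The smallest edgeR adjusted p among the histone genes was 0.314. The unadjusted p was under 0.05 for 1 gene with a higher value (Hist1h2bj) and 1 with a lower value (Hist2h3c2), against 3.59% and 6.96% of all tested genes. The groups did not overlap for 0 genes higher and 3 lower, below the shares over all tested genes of 7.73% and 8.56%. The median log2 fold change was 0.14, beside 0.03 over all tested genes, and it was -0.11 without IgG replicate 3. By class the median was 0.50 for H2B (16 of 16 positive), 0.25 for H4 (11 of 12), 0.01 for H1, -0.04 for H3 and -0.05 for H2A. The H4 median was -0.10 without IgG replicate 3, and the H2B median stayed between 0.37 and 0.81 whichever library was left out.

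Hist2h3c2, an H3 gene of the Hist2 cluster, stood at 28.2, 39.3 and 21.6 CPM in IgG tumors and at 17.5, 19.9 and 19.7 CPM in anti-B7-H3 tumors. Its log2 fold change was -0.67 ± 0.24 (SE; edgeR adjusted p = 0.314), and -0.39 without IgG replicate 2. The anti-PD1 values of 14.1, 22.2 and 22.0 CPM were in the same range as the anti-B7-H3 values and overlapped IgG. No word of this gene is its own, and its neighbor Hist2h3c1 also had a negative value, at -0.44. Hist2h2ab, an H2A gene with 66.7% of words its own, had 3.69, 2.34 and 2.76 CPM in IgG tumors and 1.74, 1.61 and 2.11 CPM in anti-B7-H3 tumors, groups that did not overlap. Its log2 fold change was -0.68 ± 0.33 (SE; edgeR adjusted p = 0.512), and -0.45 without IgG replicate 1.

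The H2B genes named in this comparison had positive values. Hist1h2bj stood at 11.7, 15.7 and 5.97 CPM in IgG tumors and 14.0, 25.0 and 26.1 CPM in anti-B7-H3 tumors. Only the highest IgG library overlapped the anti-B7-H3 range, and the log2 fold change was 0.89 ± 0.39 (SE; edgeR adjusted p = 0.443). Hist1h2bh and Hist1h2be followed at 0.86 ± 0.45 and 0.67 ± 0.37 (SE), with overlapping groups in both; without IgG replicate 2 they were 1.36 and 1.01. In IgG replicate 3 these 3 genes had 13.3, 12 and 30.9 reads.

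The antibody groups were also compared with each other. The anti-PD1 tumors had the higher value for 57 of 60 histone genes, with a median log2 difference (anti-B7-H3 over anti-PD1) of -0.44, beside 0.01 over all tested genes. None passed edgeR's adjusted threshold, which 0% of all tested genes passed, and the smallest adjusted p was 0.732. Unadjusted, 12 genes had p under 0.05 with the lower value in anti-B7-H3 tumors and 0 with the higher, against 2.55% and 3.93% of all tested genes. The groups did not overlap for 17 genes lower and 0 higher in anti-B7-H3 tumors, against 7.89% and 7.57%. DESeq2 called 1 gene, Hist4h4, and 0.185% of all genes, and limma-voom called none of the 60 and 0.0077% of all genes. Without anti-PD1 replicate 2 the median was -0.08 and 3 genes had an unadjusted p under 0.05. The matching share of all genes without that library is not given here.

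Hist4h4 again had the smallest p here, with a log2 difference of -1.70 ± 0.37 (SE; edgeR adjusted p = 0.732), and -1.28 without anti-PD1 replicate 2. Hist1h3g, an H3 gene, had 17.6, 18.0 and 19.2 CPM in anti-B7-H3 tumors against 28.5, 36.8 and 23.4 CPM in anti-PD1 tumors. Its groups did not overlap, its IgG values of 19.3, 21.1 and 15.2 CPM spanned the anti-B7-H3 range, and the log2 difference was -0.69 ± 0.20 (SE). The same order of antibody groups held without overlap for Hist2h4, at -1.31 ± 0.40, and -0.77 without anti-PD1 replicate 2. Hist1h3b (-0.62 ± 0.22) and Hist1h2ai (-0.57 ± 0.21), H3 and H2A genes, completed the 5 with the smallest p. Tested over the 3 groups together, 0 histone genes passed edgeR's adjusted threshold, which 1.22% of all tested genes did, and 15 had an unadjusted p under 0.05, against 14% of all tested genes. Hist4h4 had the smallest adjusted p of that test, 0.071.

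Genes with many words of their own gave medians close to those of the rest. Of the 12 tested genes with at least 50% unique words, 11 had a positive anti-PD1 value, with a median of 0.56, and the 48 others had a median of 0.59. Against anti-B7-H3, the anti-PD1 tumors had the higher value for 12 of these 12 genes. In 7 of them the groups did not overlap, against 7.89% of all tested genes in that direction. The Hist1 and Hist2 clusters had anti-PD1 medians of 0.59 over 48 genes and 0.54 over 9 genes.

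The proportions of the classes are given next because the nucleosome holds H2A, H2B, H3 and H4 in equal number. The ratio of H2B to H2A reads was 0.457, 0.641 and 0.496 in IgG tumors. It was 0.680, 0.849 and 0.793 in anti-B7-H3 tumors, all above the IgG libraries, and 0.598, 1.07 and 0.899 in anti-PD1 tumors, which overlapped them. The ratio of H4 to H3 reads was 0.690, 0.706 and 0.457 in IgG tumors, 1.05, 0.851 and 0.787 in anti-B7-H3 tumors and 0.852, 1.04 and 1.11 in anti-PD1 tumors, so all 6 anti-B7-H3 and anti-PD1 libraries lay above the 3 IgG libraries. The ratio of H3 to H2A overlapped in all groups, with means of 0.822 ± 0.301 (SD, n = 3), 0.828 ± 0.035 and 0.849 ± 0.158. That of H4 to H2A overlapped too, at 0.220 to 0.740 (IgG), 0.680 to 0.861 (anti-B7-H3) and 0.592 to 1.05 (anti-PD1). The H2B to H3 and H1 to H2A ratios also overlapped between groups. These ratios do not depend on the scaling between libraries. They received no test.

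**Figure D4:**
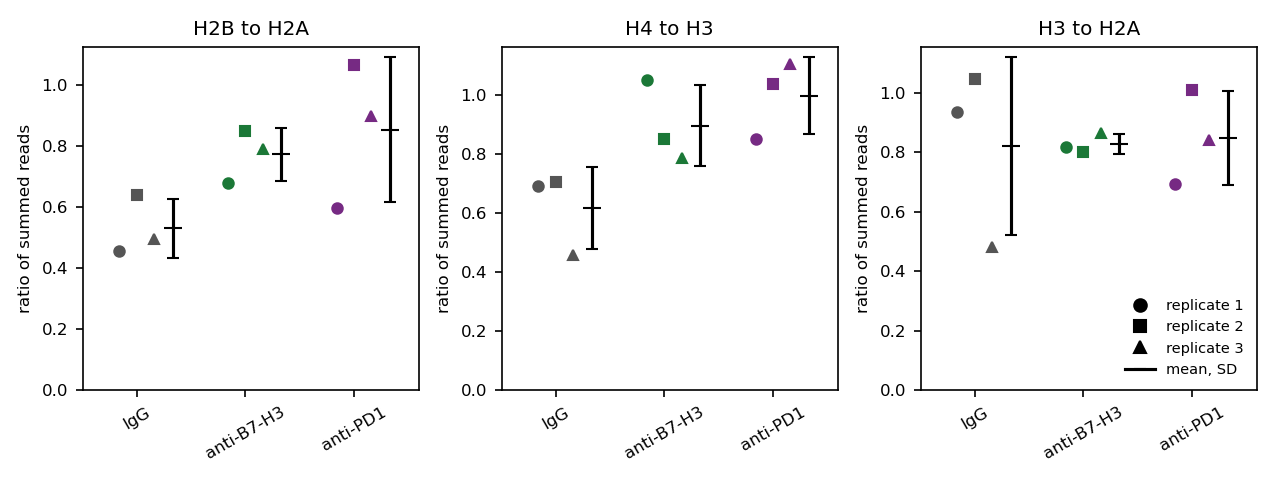
Ratio of summed reads (y axis) of H2B to H2A, H4 to H3 and H3 to H2A genes in each tumor by group (x axis), with bars for the mean and SD of 3 libraries. The IgG libraries lie at 0.706 or lower for H4 to H3 and the anti-B7-H3 and anti-PD1 libraries at 0.787 or higher, while the H3 to H2A ratios overlap.

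IgG replicate 3 had a composition of its own. H4 genes made up 7.90% of its histone reads (207 of 2621, Wilson 95% interval 6.93% to 8.99%, counting error only) against 17.2% and 17.1% in the other IgG libraries. Its H2A share was 35.8% against 26.7% and 23.1%. On the deposited TPM scale, which corrects for effective length, its H4 share was 12.7% and those of the other 8 libraries were 25.5% to 31.7%. The median effective length of H4 transcripts was shortest in that library, 143 against 148 to 159 bases elsewhere, for a coding length of 312 bases. This library also had the fewest reads outside the satellite genes, 1252540.

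The IgG libraries differed from the rest in reads over receptor genes, a class not known to be used in these tissues. They also differed in reads over other single-exon protein-coding genes, which were not chosen by use in any tissue. These values stand beside every comparison with IgG. Receptor genes had 0.780%, 0.215% and 3.65% of the per-kilobase histone level in IgG replicates 1 to 3, against 0.011% to 0.082% in the 6 anti-B7-H3 and anti-PD1 libraries. Other single-exon protein-coding genes took 9.23%, 5.33% and 19.9% of reads outside the satellite genes in IgG tumors and 2.47% to 4.07% in the rest. Over the 269 of these 953 genes that were tested, the median log2 fold change was -0.37 for anti-B7-H3 and -0.55 for anti-PD1 against IgG. The histone medians were 0.14 (-0.11 without IgG replicate 3) and 0.59. With the receptor level as a covariate, which tracks the IgG group closely, the histone medians were -1.32 and -0.53, so their direction depends on that choice. Keratinocyte genes (5 in the list, 2 of them tested) also went with the group: they summed to 9.33, 21.4 and 23.0 CPM in IgG tumors and to 0.472 to 1.97 CPM in the other 6. The part of these reads and cells in the histone values was not tested.

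Other genes of histone supply were read from lists, none of whose members passed edgeR's adjusted threshold in any of the 3 comparisons. Among 23 S phase genes, 20 had a positive anti-PD1 value against IgG, with a median log2 fold change of 0.39. By edgeR 10 had an unadjusted p under 0.05, against 7.68% (higher) and 10.9% (lower) of all tested genes. Their summed level was 1181, 1289 and 1296 CPM in IgG tumors, 1280, 1352 and 1405 in anti-B7-H3 tumors and 1688, 1557 and 1673 in anti-PD1 tumors. The anti-PD1 libraries lay above the other 6, and replicate 2, the highest for histone genes, was the lowest of the 3. Ccna2, the cyclin of S and G2 phase, had the smallest p of the list, with 41.8, 49.1 and 46.9 CPM in IgG tumors against 68.4, 76.6 and 62.3 CPM in anti-PD1 tumors. Its log2 fold change was 0.59 ± 0.17 (SE; edgeR adjusted p = 0.118). Against anti-B7-H3, 1 of the 23 was lower in anti-PD1 tumors. In anti-B7-H3 tumors against IgG, 19 of 23 were positive with a median of 0.16.

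Other histone genes, listed as polyadenylated or replication-independent, were read in the same way. Of 11 tested, 8 had a positive anti-PD1 value, with a median of 0.31. H3f3a, which encodes the replacement variant of H3, had 43.0, 56.0 and 51.0 CPM in IgG tumors and 69.5, 150 and 67.5 CPM in anti-PD1 tumors, a log2 fold change of 0.93 ± 0.32 (SE; edgeR adjusted p = 0.165). H2afz, which encodes H2A.Z, had 0.76 ± 0.27 (edgeR adjusted p = 0.184), and its values in anti-PD1 tumors were 63.2, 101 and 58.8 CPM. Both stood highest in anti-PD1 replicate 2, as did the summed level of the list at 768 CPM, against 422 to 553 CPM in the other 8 libraries. In anti-B7-H3 tumors, H1fx, a linker histone variant, had -1.18 ± 0.35 (edgeR adjusted p = 0.189).

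**Figure D5:**
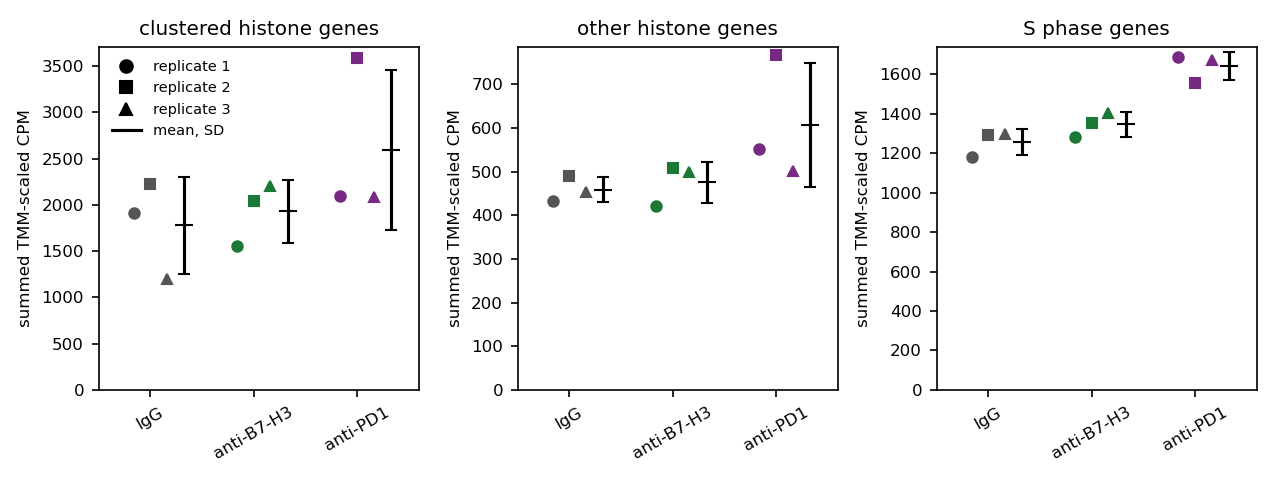
Summed TMM-scaled CPM (y axis) of clustered histone genes, of polyadenylated or replication-independent histone genes and of S phase genes. Each tumor is shown by group (x axis), with bars for the mean and SD of 3 libraries. Anti-PD1 replicate 2 stands highest in the first and second panels (3586 and 768 CPM) and lowest of its group in the S phase panel (1557 CPM).

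Histone chaperones and acetyltransferases, which carry and mark new histones before they enter chromatin, had a median anti-PD1 value of 0.19, positive in 11 of 19. Hat1, which acetylates new H4, had 13.0, 13.6 and 23.0 CPM in IgG tumors against 27.6, 35.4 and 26.1 CPM in anti-PD1 tumors, and 0.89 ± 0.24 (SE; edgeR adjusted p = 0.107). Rbbp7, its partner subunit, had 0.64 ± 0.18 (edgeR adjusted p = 0.119). The 17 tested genes of histone transcript processing and decay had a median of 0.08, with 10 positive. Lsm11, a subunit of the U7 snRNP, had a negative anti-PD1 value of -1.04 ± 0.35 (edgeR adjusted p = 0.161), from 3.89, 2.68 and 6.43 CPM in IgG tumors to 1.75, 2.24 and 1.92. Ncbp2, a subunit of the cap-binding complex, had 0.50 ± 0.21 (edgeR adjusted p = 0.237). The 12 genes of histone transcription had a median of -0.07, with 5 positive, and the smallest p among them was that of Ccne2, a cyclin E gene, at 0.53 ± 0.34.

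Many H2A and H2B genes are transcribed in opposite directions from a shared promoter region. Windows of opposite-strand neighbors overlapped for 9 pairs, each of them an H2A gene with an H2B gene. In Hist1h2ae and Hist1h2bg, whose windows share 179 bases, the anti-PD1 log2 fold changes were -0.04 ± 0.34 and 0.63 ± 0.32 (SE). In Hist1h2ah and Hist1h2bk, sharing 177 bases, they were -0.52 ± 0.44 and 1.02 ± 0.36. Within Hist1h2ai and Hist1h2bl they were 0.52 ± 0.21 and 0.82 ± 0.32. Of the 8 pairs with both genes tested, the H2B gene had the higher anti-PD1 value in 7. The exception was Hist1h2ad and Hist1h2bf, at 1.27 ± 1.65 and 0.75. For anti-B7-H3 against the same IgG libraries, the H2B gene was also the higher in 7 of the 8. The difference within pairs was not tested, and most of these genes share the majority of their words with other copies.

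Markers of some other cell types stood apart in single libraries. The macrophage list (8 of 8 genes tested) summed to 1131 CPM in anti-PD1 replicate 2 and 1011 CPM in anti-B7-H3 replicate 3, against 192 to 581 CPM in the other 7 libraries. The skeletal muscle list (5 of 5) reached 903 and 1296 CPM in the same libraries, with 0.722 to 399 CPM elsewhere. Histone levels were highest in the first of these and at 2200 CPM in the second. Erythroid genes summed to 355 CPM in IgG replicate 3 and 20.7 to 102 CPM elsewhere. The part of these cells in the histone values was not tested.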

How the data were processed

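Bulk tumor RNA from 9 libraries in 3 groups of 3 was analysed. Before deposit the authors made a table per library of estimated counts (NumReads), TPM and effective lengths per transcript, per the file headers; replicates were not pooled. The submitters' processing notes name FastQC 0.11.8 and GRCm38, and no source used here names the program that estimated the counts. For 92.2% of 57298 annotated coding transcripts the deposited length equals the coding length, so UTR reads, the stem-loop included, are not counted. Estimated counts were summed per gene (57473 of 58083 transcripts matched to GENCODE M21) and rounded. Genes with enough reads (edgeR filterByExpr) numbered 12980, 60 of them histone genes. The main test was edgeR 4.0.16 (robust quasi-likelihood, TMM, group only, all 9 libraries, Benjamini-Hochberg, threshold 0.05), in R 4.3.3. DESeq2 1.42.0, limma 3.58.1 with voom, other scalings and filters, a receptor-level covariate and leaving out each library were alternatives. The fit was tested on simulated data. Deposited TPM values, normalised by the authors' quantifier, were used only for class shares. Depth was 8627930 to 27288766 reads per library, and the biological coefficient of variation was 28.5%.

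Members and gene lists were chosen with earlier results of these data known. Histone genes are named by a rule: those past the threshold or, where fewer than 5 pass, the 5 with the smallest p in each comparison, the 2 highest per kilobase in each class, and 3 testis-linked genes; of each other list, the 2 with the smallest p, of which 1 is not reported here. Names outside it (single-word checks, divergent pairs, calls by another tool) were chosen after their values were seen. Lists of T cell, B cell, keratinocyte, fibroblast, endothelial and neutrophil markers were also summed.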

Additional observations from a re-analysis of the deposited data

How the results depend on the processing

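Replicate numbers are not said to mark a shared mouse, batch or day, and the main fit used no pairing. Deviations from the group means had correlations of -0.32 to 0.18 between same-numbered libraries. Replicate 1 had the largest share of satellite reads in each group (92.0%, 28.2% and 38.2%). With 3 libraries per group these values cannot tell whether the numbers pair the samples. With a replicate block, 0 histone genes passed in each comparison. Of all genes, 0.794% (anti-B7-H3 against IgG), 1.03% (anti-PD1 against IgG) and 0% (anti-B7-H3 against anti-PD1) passed. The histone medians in the same order were 0.23, 0.60 and -0.42. With library totals as the only scaling, which moved the median of all genes to 3.37 and 3.15, the histone medians against IgG were 3.47 (anti-B7-H3) and 3.71 (anti-PD1). Under it 59 histone genes were called higher in each comparison and 58 over the 3 groups, with 95.1% to 96.6% of all genes called, and Hist2h2ab and Hist2h3c2 turned positive at 2.70 and 2.61. With the receptor covariate the medians were -1.32 (anti-B7-H3) and -0.53 (anti-PD1), and Hist1h2be (-1.39), Hist1h2bh (-1.54) and Hist1h2bj (-1.22) turned negative for anti-B7-H3, as did Hist1h2bb (-0.38) for anti-PD1. The cause was not tested. For anti-PD1 against IgG, DESeq2 called 7 genes, limma-voom 1 and edgeR without the low-count filter 6 (3.3% of all genes). Over the 3 groups DESeq2 called 4 (6% of all genes), edgeR without the filter 5 (7.63%) and edgeR without the satellite genes 1 (4.03%). For anti-B7-H3 against anti-PD1 DESeq2 called 1 lower.

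Leaving out 1 library at a time gave 0 called histone genes in every comparison and over the 3 groups. The share of all genes called ran from 0.0604% to 3.42% (anti-B7-H3 against IgG) and from 0.068% to 3.3% (anti-PD1 against IgG). It was 0% for anti-B7-H3 against anti-PD1 and 0.0831% to 3.27% over the 3 groups. Each low was without IgG replicate 1 and each high without IgG replicate 2. The medians ranged from -0.11 to 0.34 (anti-B7-H3 against IgG, lowest without IgG replicate 3), from 0.33 to 0.82 (anti-PD1 against IgG, lowest without anti-PD1 replicate 2) and from -0.58 to -0.08 (anti-B7-H3 against anti-PD1, nearest 0 without anti-PD1 replicate 2). An alternative chosen after seeing the data left out both IgG replicate 3 and anti-PD1 replicate 2. The medians were then -0.10, 0.15 and -0.08, with 0 histone genes called. Of all genes, 0.182%, 0.0756% and 0% were called there, in the same order. IgG replicate 3 holds 2621 histone reads, which limits the precision of every IgG mean.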

Other observations

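Marker lists that enter no comparison above were as follows. Fibroblast genes summed to 2646 to 7586 CPM in IgG tumors, 5283 to 8463 CPM in anti-B7-H3 tumors and 4171 to 6077 CPM in anti-PD1 tumors. T cell genes summed to 6.48 to 17.9, 10.5 to 17.8 and 7.57 to 12.1 CPM in the same order, and B cell genes to at most 4.60 CPM in any library. Endothelial genes ranged from 53.3 to 103 CPM and neutrophil genes from 3.94 to 8.27 CPM over the 9 libraries.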
